A study of Homo sapiens with 42 samples.

Results

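The mitochondrially encoded transcripts are the 37 genes whose symbols start with MT- and which lie on the mitochondrial genome, out of 60606 genes in the deposited expression table. They comprise 13 mRNAs, 2 rRNAs and 22 tRNAs, and the members were set by symbol and position. That rule uses no measured values, but it was chosen with earlier results of these data known. All 13 mRNAs, both rRNAs and 16 of the 22 tRNAs reached the mean of 1 TPM that a tested gene needed (TPM are transcript levels scaled for length and to the same total in every library). Every statement on a direction below rests on the mRNAs unless rRNAs or tRNAs are named.

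The levels come from polyA-selected RNA of whole AC16 cells in 30 libraries, 3 in each of 10 groups. AC16 is an established human line, labelled cardiomyocyte-like, that was made by fusing adult ventricular cardiomyocytes with fibroblasts lacking mitochondrial DNA, so that its mitochondrial genome came with the cardiomyocyte parent. In 7 groups the cells carried a doxycycline-inducible hairpin against RPL3 together with a construct for an RPL3L variant, namely R343W, D308V, D308N, P291L, T189M, R161W or G27D, and the RPL3L-WT group carried the same hairpin with wild-type RPL3L. The shRPL3 group carried the RPL3 hairpin alone and the shScramble group a scrambled hairpin that is also doxycycline-inducible. Every group, the controls included, received doxycycline at 1 ug/ml, an antibiotic that also inhibits the mitochondrial ribosome. Hairpin cells were lentivirally transduced and selected with hygromycin, and the RPL3L constructs were added to RPL3-hairpin cells, which were then sorted for BV421 signal. The labels do not say whether the 3 libraries of a group came from separate cultures, so p-values measure the spread between these libraries, which may be technical.

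RPL3 is a protein of the large subunit of the cytosolic ribosome, and RPL3L is its paralog of heart and skeletal muscle. The human mitochondrial genome encodes core subunits of the respiratory chain: 7 of complex I (MT-ND1 to MT-ND6 and MT-ND4L), cytochrome b of complex III (MT-CYB), 3 of cytochrome c oxidase, complex IV (MT-CO1 to MT-CO3), and 2 of the ATP synthase, complex V (MT-ATP6 and MT-ATP8). Both strands are transcribed by the polymerase POLRMT into long precursors, which are cut mostly at the tRNAs that lie between the other genes, and the polymerase MTPAP adds a polyA tail to most of the freed mRNAs. The mRNAs are then bound by LRPPRC and SLIRP and translated by the mitochondrial ribosome, which contains neither RPL3 nor RPL3L. Of the mRNAs, 12 lie on the plus strand and MT-ND6 alone on the minus strand, and MT-ND6 is known in human cells for lacking a long polyA tail.

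The sequences that matter for reading the values are the overlaps between genes and the ends at which tails are added. They are from GENCODE 29 transcripts on GRCh38. MT-ATP8 (chrM:8366-8572) and MT-ATP6 (chrM:8527-9207) share 46 bases in different reading frames, and MT-ND4L (chrM:10470-10766) and MT-ND4 (chrM:10760-12137) share 7 bases. Each pair stays on 1 mature mRNA, so that reads of a pair come from the same molecule and the split into 2 genes is made by the quantification. Shared bases are in capitals.
MT-ATP8 end: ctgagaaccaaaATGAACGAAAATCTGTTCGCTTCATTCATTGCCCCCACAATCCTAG
MT-ATP6 start: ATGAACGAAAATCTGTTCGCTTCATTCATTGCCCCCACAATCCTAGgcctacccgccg
MT-ND4L end: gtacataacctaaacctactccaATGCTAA
MT-ND4 start: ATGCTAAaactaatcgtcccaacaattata
In 6 of the 13 mRNAs, as annotated, the encoded sequence holds only part of the stop codon, and the polyA tail supplies the rest. In MT-ND1 (chrM:3307-4262) the part is TA, and in the other 5, among them MT-ND4 and MT-CYB (chrM:14747-15887), it is T. The last 30 bases of these 3 and of MT-ND6 (chrM:14149-14673, minus strand), which ends in a whole codon, follow with the stop codon or its part in capitals.
MT-ND1 3′ end: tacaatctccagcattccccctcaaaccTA
MT-ND4 3′ end: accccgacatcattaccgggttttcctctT
MT-CYB 3′ end: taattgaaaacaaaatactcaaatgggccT
MT-ND6 3′ end: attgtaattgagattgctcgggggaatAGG

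TPM values keep no sequencing depth, so the depth behind each level is unknown and no counting interval can be given. A group of 6 libraries stood apart from the other 24 in ways the groups do not explain: RPL3L-WT replicates 1 and 2, G27D replicate 3, R161W replicate 1, and T189M replicates 1 and 2. They are called the second library kind and the others the first. The labels name no such division, and it was read from the data. In the cells with an RPL3L construct, the ratio of the reporter EBFP2 to the transactivator rtTA3, both on the construct, was 1.43 to 1.57 in the second kind, against 0.971 to 1.05 in the first. The main model was fitted with limma on log2(TPM + 1) over all 30 libraries with a term for the library kind, and fold changes are on that scale. A model without the term counts the difference between kinds as spread between replicates, and it also shifts the mean of each group that holds second-kind libraries. It called 7 of the 13 mRNAs in shRPL3 against shScramble and none in D308N against D308V, while first-kind libraries alone gave 12 in each. None of 12 cardiomyocyte markers reached a mean of 1 TPM, and their summed level was 0.33 to 2.43 TPM over the libraries, while all 8 fibroblast markers did, with sums of 5023 to 7401 TPM. Of 4 epithelial markers 2 did (sums of 211 to 433 TPM), and of 3 endothelial markers none did. The labelled cardiomyocyte-like character is thus not seen in these markers. In bulk RNA, fewer mitochondrial genomes or cells expressing a gene and less RNA per cell cannot be told apart, and TPM are shares of a fixed total.

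The targeted gene, RPL3, had 539, 499.6 and 569.8 TPM in shRPL3 libraries, against 1565, 1534 and 1611 TPM in shScramble libraries, a 0.341-fold level (adjusted p = 2.11e-20). RPL3 was at 445, 439 and 673 TPM in RPL3L-WT libraries, and between 568 and 737 TPM in the first-kind libraries of P291L, G27D, D308N, D308V and R343W. R161W libraries had 1059, 1686 and 1570.1 TPM and T189M libraries 779.7, 802 and 1246 TPM of RPL3. The libraries labelled R161W thus went against the hairpin on their label and those labelled T189M in part, with log2 fold changes over RPL3L-WT of 1.25 (adjusted p = 2.78e-17) and 0.85 (adjusted p = 8.96e-14). Of the RPL3 values above, 445, 439, 1059, 779.7 and 802 TPM are from second-kind libraries. RPL3 was lower in that kind within the model (log2 -0.64), so these values cannot be set directly beside those of first-kind libraries. RPL3L was at most 0.057 TPM in shScramble libraries and in shRPL3 replicates 1 and 2, and 121 TPM in shRPL3 replicate 3, which holds no construct by its label. Counts against shRPL3 are given below also without that library.

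Among the first-kind libraries, MT-CO1 had the highest median level of the 13 mRNAs (10060.3 TPM), followed by MT-ATP8 (9949 TPM), MT-CO2 (8754 TPM), MT-CO3 (8117 TPM) and MT-ATP6 (7217 TPM). These TPM are normalised for transcript length. The median was 6470.1 TPM for MT-ND4L, 5995 TPM for MT-ND4, 4153 TPM for MT-ND3, 3735 TPM for MT-CYB and 3410 TPM for MT-ND2. The levels were lowest for MT-ND1 (2022 TPM), MT-ND5 (1741 TPM) and MT-ND6 (145 TPM). The ranges of neighbours in this order overlapped between libraries for every pair except MT-ND5 and MT-ND6. The subunits of complexes IV and V thus stood above those of complexes I and III in these libraries, and MT-ND6, the mRNA of the opposite strand, made up 0.20% of the summed 13.

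Summed over the 13 mRNAs, the level as a percent of all TPM ran from 5.49 to 14.9% over the libraries (plot of the summed level by library). In first-kind libraries, D308N had the lowest sums, 6.06, 5.49 and 5.79%, and shRPL3 libraries had 6.26, 6.51 and 6.15%. G27D replicates 1 and 2 stood at 6.49 and 6.43%. The sums were 6.87, 7.28 and 7.12% in P291L, 7.23% in RPL3L-WT replicate 3, 7.42, 7.58 and 7.29% in D308V, 7.88, 7.57 and 7.08% in R343W and 7.61% in T189M replicate 3. R161W replicates 2 and 3 had 8.64 and 8.55%, and shScramble libraries 10.2, 9.80 and 9.36%. P291L, RPL3L-WT, D308V, R343W and T189M lay close together in this order, from 6.87 to 7.88%. The 2 groups with the highest sums, R161W and shScramble, were also those with the highest RPL3. Some other groups did not follow RPL3. In T189M replicate 3, with 1246 TPM of RPL3, the sum lay within the range of R343W, where RPL3 was 724 to 737 TPM. D308N, with the lowest sums, had 680 to 714 TPM of RPL3, against 568 to 571 TPM in D308V. Whether RPL3 has a part in the sums was not tested. Second-kind libraries had 12.2 to 14.9%, above every first-kind library.

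**Figure D1:**
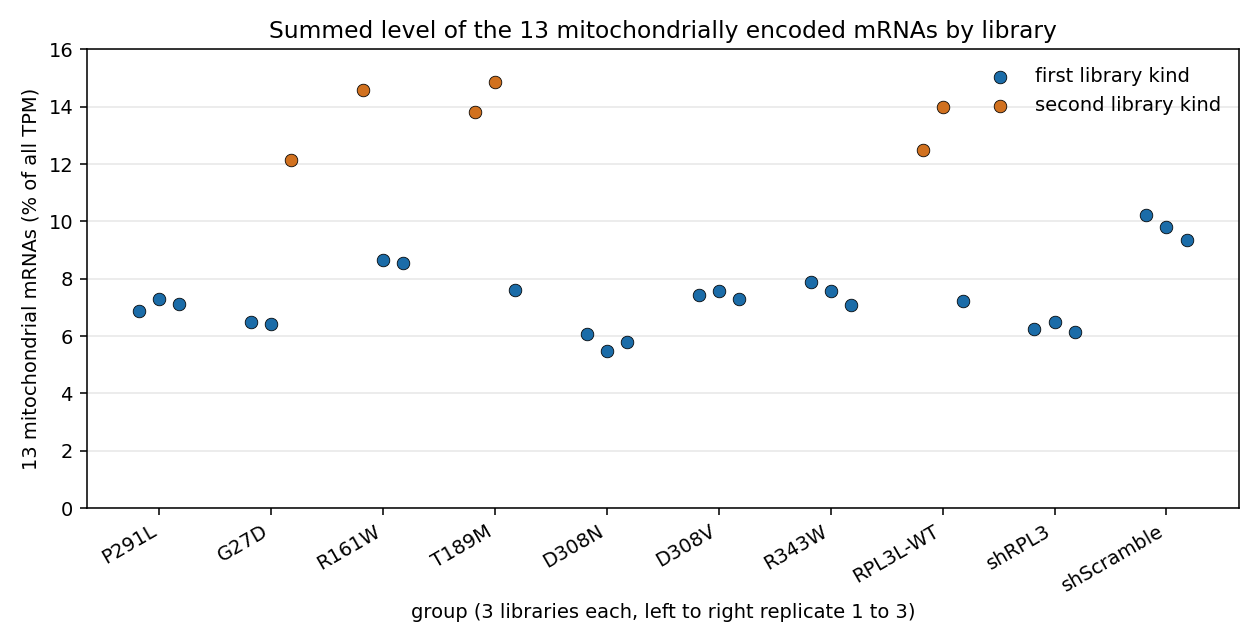
Summed level of the 13 mitochondrially encoded mRNAs as a percent of all TPM (vertical axis) in each of the 30 libraries (points), by group (horizontal axis) and library kind (colour). The 6 libraries of the second kind lie at 12.2 to 14.9%; among those of the first kind, D308N is lowest at 5.49 to 6.06% and shScramble highest at 9.36 to 10.2%.

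When RPL3 was lowered, most mitochondrial mRNAs fell and MT-ND1 rose. In shRPL3 against shScramble, 11 of the 13 fell, 1 rose and 1, MT-ND6, did not pass the test (limma, adjusted p under 0.05). The background over all 14426 genes tested was 24.5% lower and 24.4% higher, and the median log2 fold change was -0.48 for the 13, against -0.01 for all genes. The same 12 mRNAs had no overlap between the libraries of the groups, where 54.5% of all genes had none.

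Complex V showed some of the largest falls. MT-ATP6, a subunit of the proton channel, had 6656, 6698 and 6189 TPM in shRPL3 libraries, against 12617, 11765 and 11367 TPM in shScramble libraries. All shRPL3 values lay below all shScramble values, and the fold was 0.547 (log2 -0.87 ± 0.06 SE, adjusted p = 2.9e-11). MT-ATP8, which shares its mRNA and encodes a small membrane subunit, fell to 9521 ± 835 TPM in shRPL3 libraries, against 16014 ± 545 TPM in shScramble libraries (SD, n = 3 each; log2 -0.75). In complex IV, MT-CO1, the catalytic subunit, fell to 8751 ± 153 TPM in shRPL3 libraries, against 13671 ± 762 TPM in shScramble libraries (log2 -0.64). MT-CO2, which receives electrons from cytochrome c, fell by 0.63 on the log2 scale and MT-CO3 by 0.45. MT-CYB of complex III fell to 2959 ± 66 TPM in shRPL3 libraries, against 4147 ± 280 TPM in shScramble libraries (log2 -0.48).

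The complex I mRNAs did not move together. MT-ND4 had 4451, 4575 and 4354 TPM in shRPL3 libraries, against 8899, 8078 and 7578 TPM in shScramble libraries, a 0.546-fold level (adjusted p = 1.29e-11). MT-ND4L, on the same mRNA, fell by 0.88 on the log2 scale, close to the fall of 0.87 of MT-ND4. The 4 largest falls of the 13 were therefore those of the 2 mRNAs that carry overlapping reading frames. MT-ND3 fell by 0.47, MT-ND5 by 0.32 and MT-ND2 by 0.15 on the log2 scale. The fall of MT-ND2 did not pass without shScramble replicate 1 (adjusted p = 0.113) or without shRPL3 replicate 3 (adjusted p = 0.0782), which left 11 mRNAs called. MT-ND6 had 145, 191 and 168 TPM in shRPL3 libraries, against 149.9, 173 and 138 TPM in shScramble libraries, and the groups overlapped (log2 0.13 ± 0.15 SE, adjusted p = 0.498). The sources used here do not state whether reads were assigned by strand, so reads of the opposite strand at MT-ND6 cannot be told apart from its own.

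MT-ND1, a core subunit of the membrane arm of complex I and the first mRNA after the rRNAs, went the other way. It had 1580.3, 1642 and 1672 TPM in shRPL3 libraries, against 1086, 1024 and 951 TPM in shScramble libraries. Every shRPL3 library lay above every shScramble library, with a fold of 1.60 (log2 0.68 ± 0.05 SE, adjusted p = 1.35e-10). MT-ND1 was 2.59% of the summed 13 mRNAs in shRPL3 libraries, against 1.04% in shScramble libraries. MT-RNR2, the large-subunit rRNA of the mitochondrial ribosome, lies upstream of MT-ND1 on the genome. Its level in the polyA-selected RNA rose as well, to 4519 ± 148 TPM in shRPL3 libraries, against 3618 ± 90 TPM in shScramble libraries (SD, n = 3 each). The log2 difference was 0.32 (limma, adjusted p = 9.22e-09).

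In cells with the hairpin and RPL3L-WT, most of these mRNAs were higher than with the hairpin alone, and so was MT-ND1. RPL3 was also higher in RPL3L-WT than in shRPL3 in the model with the kind term (limma, log2 0.36, adjusted p = 7.24e-07). The part of RPL3 in these differences was not tested. Against shRPL3, 10 of the 13 were higher in RPL3L-WT and 1, MT-ND6, was lower (background 6.27% higher and 20.1% lower), with a median log2 fold change of 0.31, against -0.10 over all genes. Median-ratio scaling moved the median of all genes to 0.0047 and that of the 13 to 0.43, with 11 higher and none lower. Of the RPL3L-WT libraries only replicate 3 is of the first kind, and the first-kind libraries alone gave 8 higher and 1 lower. MT-ND4 had 5898 TPM in RPL3L-WT replicate 3, against 4354 to 4575 TPM in shRPL3 libraries (log2 0.41 ± 0.06 SE in the model, adjusted p = 6.58e-05). MT-ND4L (0.39), MT-ND5 (0.40), MT-CYB (0.38), MT-ND2 (0.37) and MT-ND3 (0.31) rose by similar amounts. The rises of MT-ATP6 (0.22), MT-CO1 (0.17) and MT-CO2 (0.12) were smaller. The rise of MT-CO2 did not pass without any 1 of the shRPL3 libraries or without RPL3L-WT replicate 2 or 3, and that of MT-ATP6 did not pass without shRPL3 replicate 3 or RPL3L-WT replicate 2 (adjusted p = 0.0723 and 0.0605). MT-CO3 and MT-ATP8 had log2 differences of 0.06 and 0.02 that did not pass. MT-ND6 fell by 0.50 on the log2 scale, and this call was lost without shRPL3 replicate 2 or 3 and without RPL3L-WT replicate 2 or 3. Without shRPL3 replicate 3, 8 mRNAs were higher and none lower.

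Against shScramble, 8 of the 13 mRNAs were lower in RPL3L-WT and 2 were higher (background 29.1% lower and 15.6% higher). MT-ATP8 (log2 -0.73), MT-ATP6 (-0.65) and MT-CO2 (-0.51) were furthest below shScramble, and MT-ND5, MT-ND6 and MT-CYB did not pass. MT-ND1 was 1.99-fold higher in RPL3L-WT than in shScramble (log2 0.99 ± 0.06 SE, adjusted p = 2.1e-12), with 1989.8 TPM in RPL3L-WT replicate 3. MT-ND2 was higher by 0.22. The first-kind libraries alone gave the same counts of 8 and 2, and a model without the kind term gave none lower and 3 higher. This comparison shares its libraries with those above.

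**Figure D2:**
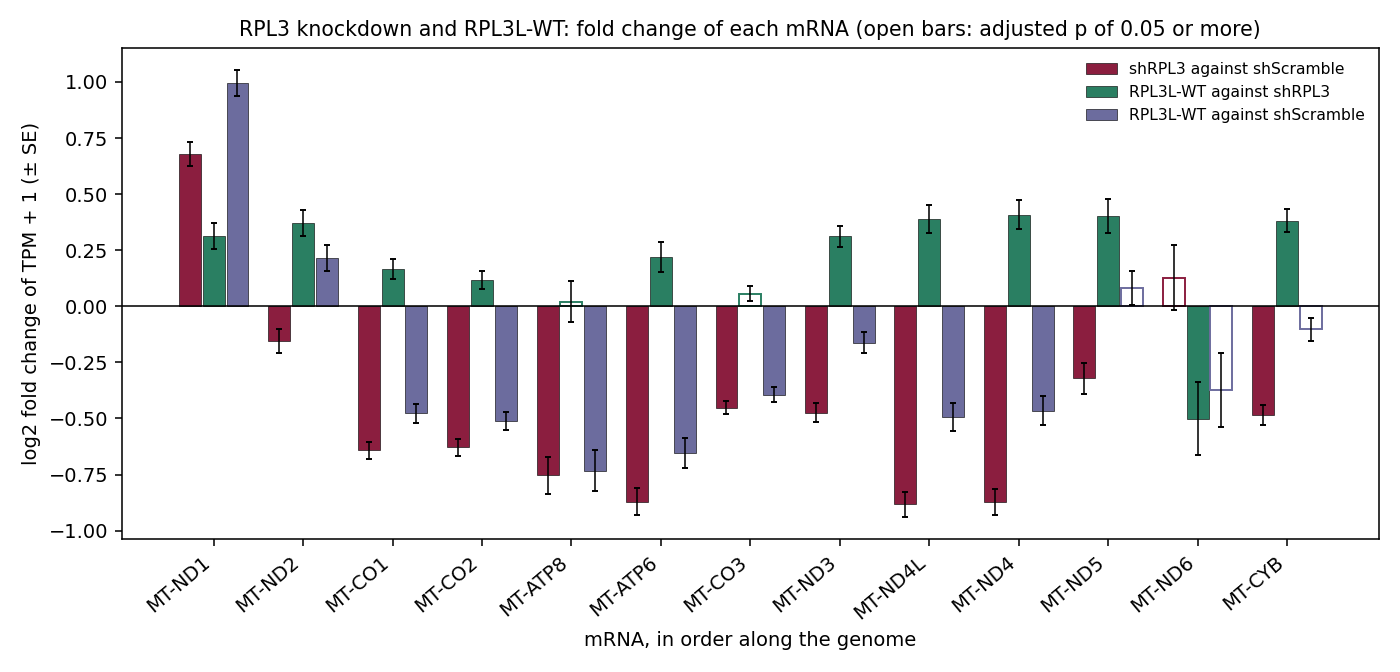
Log2 fold change of TPM + 1 (bars, with the SE of the model) for each of the 13 mRNAs in order along the genome, in shRPL3 against shScramble, RPL3L-WT against shRPL3 and RPL3L-WT against shScramble. Open bars did not pass the adjusted p of 0.05. MT-ND1 is higher in all 3 comparisons, while MT-ATP6, MT-ND4L and MT-ND4 show the largest falls in shRPL3, by 0.87 to 0.88.

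Across the variants MT-ND1 varied in an order of its own (plot of MT-ND1 and MT-ATP6 by library). In first-kind libraries MT-ND1 had 3111, 2969 and 2978 TPM in D308V, 2705, 2546 and 2680.4 TPM in D308N, and 2538, 2444 and 2442 TPM in R343W. G27D replicates 1 and 2 had 2339 and 2371 TPM. The values were 1896, 2055 and 1963 TPM in P291L, 1989.8 TPM in RPL3L-WT replicate 3, 1902 and 1956 TPM in R161W and 1853 TPM in T189M replicate 3, which lay close together, between 1853 and 2055 TPM. The levels thus ran down from D308V through D308N, R343W and G27D to P291L. Of these neighbours only D308N and D308V were compared in the model, so the order is a description. D308N and R343W lay closest, with 2546 TPM in the lowest D308N library and 2538 TPM in the highest R343W library. MT-ATP6 was ordered differently in first-kind libraries, with D308N lowest and R161W and shScramble highest. In first-kind libraries the ratio of MT-ND1 to MT-RNR2 was 0.600 to 0.652 in D308V and 0.577 to 0.619 in R343W. It was 0.563 to 0.573 in D308N and 0.286 to 0.301 in R161W, against 0.417 in RPL3L-WT replicate 3 and 0.263 to 0.307 in shScramble.

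**Figure D3:**
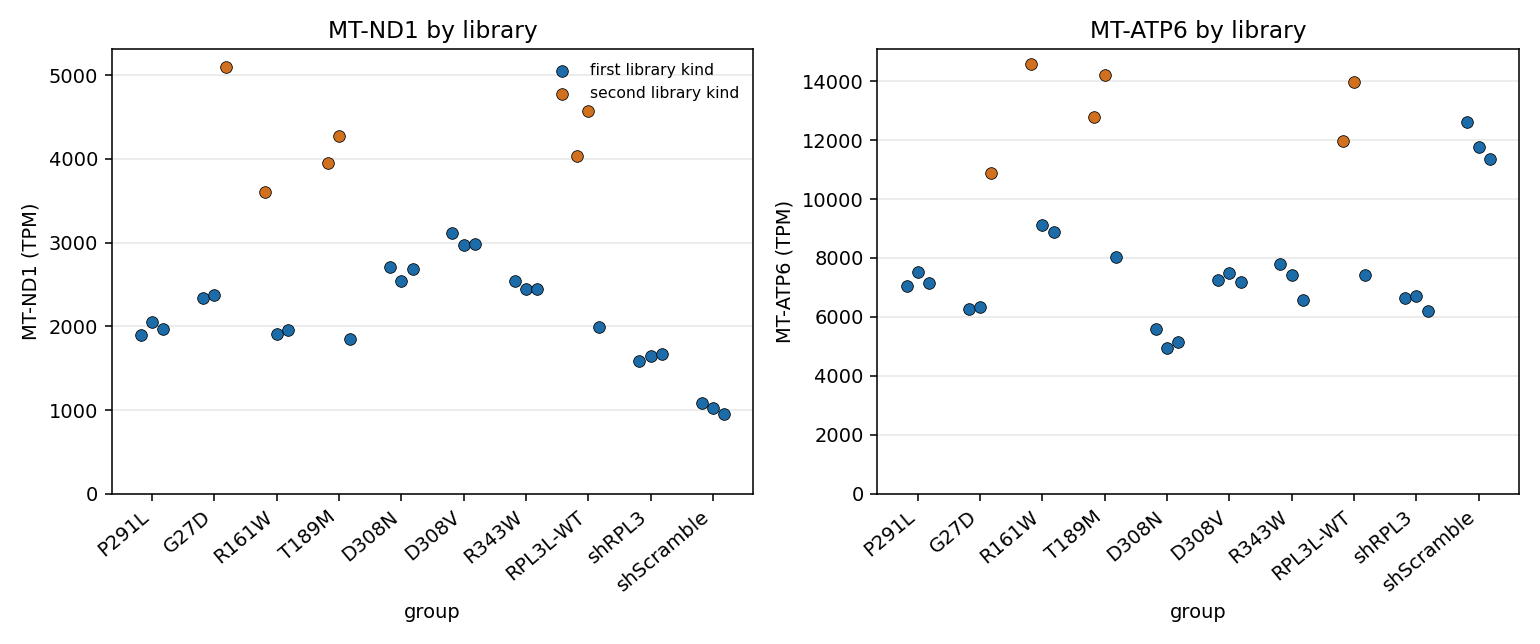
Levels of MT-ND1 (left) and MT-ATP6 (right) in TPM (vertical axes) in each library (points) by group (horizontal axes), coloured by library kind. In first-kind libraries MT-ND1 is highest in D308V (2969 to 3111 TPM) and lowest in shScramble (951 to 1086 TPM), while MT-ATP6 is lowest in D308N (4942 to 5603 TPM) and highest in shScramble (11367 to 12617 TPM).

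D308N had the lowest mitochondrial mRNAs of the variants. Against RPL3L-WT, 11 of the 13 were lower and MT-ND1 was higher (background 12.8% lower and 17.5% higher), with a median log2 fold change of -0.33, against 0.04 over all genes. MT-ATP6 had 5603, 4942 and 5146 TPM in D308N libraries, against 7437 TPM in RPL3L-WT replicate 3 (log2 -0.54 ± 0.07 SE in the model, adjusted p = 1.52e-06). MT-CO3 fell by 0.48, MT-CYB by 0.42, MT-ATP8 by 0.38 and MT-ND4L by 0.36 on the log2 scale. MT-ND1 was higher by 0.38 (adjusted p = 1.92e-05). MT-ND2 was the mRNA that did not pass (-0.15, adjusted p = 0.055). The fall of MT-ND6 (-0.45) was lost without RPL3L-WT replicate 1 or 3 and without D308N replicate 2 or 3. The first-kind libraries alone gave 10 lower and 1 higher.

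D308N and D308V change the same residue, and all 6 of their libraries are of the first kind, so that the log2 differences are the same with and without the kind term. Of the 13 mRNAs, 12 were lower in D308N than in D308V and none higher, where 4.19% of all genes tested were lower and 4.07% higher. The median log2 fold change was -0.35 for the 13 and 0.01 for all genes, and 12 had no overlap between the groups, where 26.9% of all genes had none. MT-CO1 had 8014, 7600 and 7915 TPM in D308N libraries, against 10587, 10456 and 10339 TPM in D308V libraries. Every D308N library lay below every D308V library (log2 -0.42 ± 0.04 SE, adjusted p = 1.07e-07). MT-ATP8 fell by 0.49, MT-ATP6 by 0.48, MT-ND4 by 0.37, MT-CO3 by 0.36, MT-CYB by 0.35 and MT-ND4L by 0.35. MT-ND6 had 96, 72 and 92 TPM in D308N libraries, against 144, 111 and 151 TPM in D308V libraries (log2 -0.64, adjusted p = 0.0089). MT-ND3 did not pass (-0.13, adjusted p = 0.0713). Counts ranged from 9 to 13 when 1 library was left out, since MT-ND1 (-0.19), MT-ND5 (-0.27) and MT-ND6 each passed only with certain libraries: MT-ND1 was lost without D308N replicate 2 or 3 or D308V replicate 1 or 3, MT-ND5 without D308N replicate 2 or D308V replicate 2, and MT-ND6 without D308N replicate 2 or D308V replicate 3. RPL3 was also higher in D308N, at 680.1, 714 and 691 TPM, against 571, 568 and 569.7 TPM in D308V (log2 0.29, adjusted p = 1.08e-05), and RPL3L had 4951 to 5198 TPM in D308N, against 2667 to 2984 TPM in D308V. Their part in the result was not tested.

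The libraries labelled R161W had the most mRNAs above RPL3L-WT among the variants. Here 8 of the 13 were higher and none lower (background 16.1% higher and 8.87% lower), with a median log2 fold change of 0.19, against 0.05 over all genes. The first-kind libraries alone gave the same count of 8, and a model without the kind term called none. With median-ratio scaling 5 were higher and 1, MT-ND1, lower. MT-CO3 had 11109 and 10894 TPM in R161W replicates 2 and 3, against 8639 TPM in RPL3L-WT replicate 3 (log2 0.30 ± 0.03 SE in the model, adjusted p = 1.43e-07). MT-ND6 rose by 0.60, MT-ATP8 by 0.33, MT-CO2 by 0.23, MT-ATP6 by 0.23, MT-CO1 by 0.21, MT-ND3 by 0.19 and MT-CYB by 0.16. MT-ATP6 did not pass without RPL3L-WT replicate 3 (adjusted p = 0.0592), and MT-CYB did not pass without RPL3L-WT replicate 1 or 3 or R161W replicate 2 or 3. MT-ND1 had a log2 difference of -0.13 that did not pass. RPL3 in R161W replicates 2 and 3 was near the level of shScramble, which moves with this result, and its part was not tested. In R161W replicate 1, of the second kind, RPL3 was 1059 TPM.

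The other variants moved fewer mRNAs against RPL3L-WT. Their counts changed when 1 library was left out, as did those of D308N (11 to 13) and R161W (6 to 10). In G27D, 5 were lower, MT-ATP6 (log2 -0.25), MT-CYB (-0.25), MT-ND4L (-0.19), MT-CO3 (-0.18) and MT-CO1 (-0.13), and MT-ND1 was higher (0.23; background 6.02% lower and 4.31% higher). Without RPL3L-WT replicate 3 this count fell to 3 lower and none higher, and the first-kind libraries alone gave 2 lower and 1 higher. In D308V, MT-ND1 was higher (0.57 ± 0.06 SE, adjusted p = 6.49e-08) and MT-ND3 (-0.16) and MT-CO3 (-0.11) lower (background 16.2% higher and 12.7% lower). The total was 5 without RPL3L-WT replicate 2 and 1 without D308V replicate 3, MT-ND3 was also lost without RPL3L-WT replicate 3 or D308V replicate 1, and MT-ND1 was the mRNA called in the first-kind libraries alone. In R343W, MT-ND6 (0.81 ± 0.16 SE, adjusted p = 0.000603), MT-ND1 (0.29) and MT-CO1 (0.13) were higher and MT-CO3 (-0.17) lower (background 18.8% higher and 12.6% lower). MT-ND6 had 211, 194 and 218 TPM in R343W libraries, against 111 TPM in RPL3L-WT replicate 3, and the call of MT-CO1 was lost without RPL3L-WT replicate 1 or 3 or R343W replicate 1 or 2. In the libraries labelled T189M, MT-ND6 (0.48) and MT-CO2 (0.13) were higher (background 7.51% higher and 3.08% lower). Only 1 of these mRNAs passed without RPL3L-WT replicate 1 or 2 or without any 1 of the T189M libraries, and neither passed without RPL3L-WT replicate 3 or in first-kind libraries alone. In P291L, MT-CO3 was lower by 0.13 (background 1.16% lower and 0.825% higher), and this call was lost without RPL3L-WT replicate 2 or 3, without any 1 of the P291L libraries, and in the first-kind libraries alone. The other 12 mRNAs of P291L had log2 differences of -0.07 to 0.05, and a missed threshold does not show that the levels were alike.

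**Figure D4:**
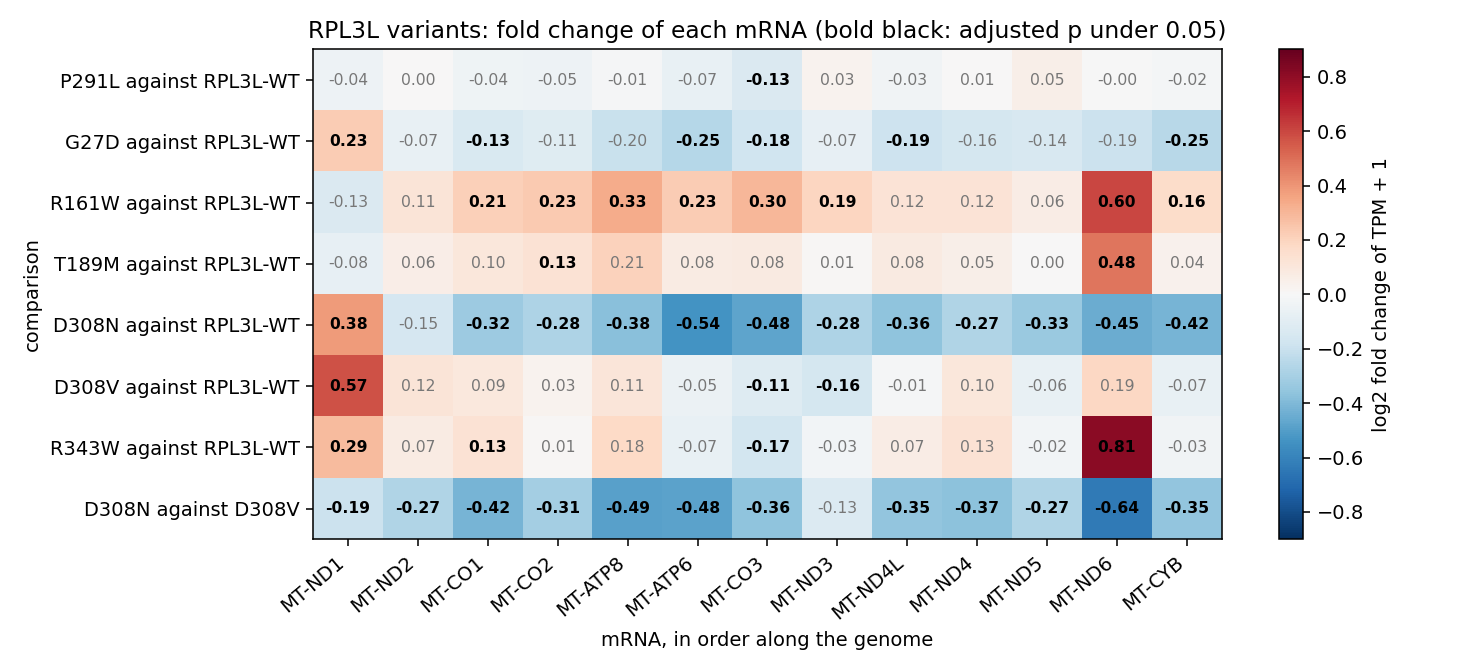
Log2 fold change of TPM + 1 (colour and number) of the 13 mRNAs (horizontal axis, in order along the genome) for every comparison of a variant with RPL3L-WT and, in the last row, of D308N with D308V (vertical axis). Bold black numbers passed an adjusted p of 0.05. D308N has 11 lower mRNAs and a higher MT-ND1, R161W has 8 higher, and the row of D308N against D308V has 12 lower.

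P291L, D308N, D308V and R343W hold first-kind libraries alone and can be set against shRPL3 without the kind difference between groups. Of the 13 mRNAs, 8 were higher and 1 lower in P291L (background 8.52% higher and 27.3% lower; with median-ratio scaling 10 higher and 1 lower, and medians of 0.39 for the 13 and 0.0053, against -0.10 unscaled, for all genes), 10 higher and none lower in D308V (9.67% higher and 22.4% lower), and 10 higher and 1 lower in R343W (12.7% higher and 22.8% lower). D308N differed, with 2 higher and 6 lower (11.2% higher and 22.2% lower). Median-ratio scaling gave 3 higher and 4 lower in D308N. MT-ND1 was higher in all 4, by 0.27 in P291L, 0.70 in D308N, 0.89 in D308V and 0.60 in R343W. MT-ND4 was higher by 0.41 in P291L, 0.51 in D308V and 0.54 in R343W, and its difference of 0.14 in D308N did not pass (adjusted p = 0.069). MT-CO3 was lower by 0.42 in D308N and by 0.11 in R343W, while differences of -0.07 in P291L and -0.06 in D308V did not pass. MT-ND6 was lower by 0.95 in D308N, with 96, 72 and 92 TPM in D308N libraries, against 145, 191 and 168 TPM in shRPL3 libraries, and by 0.50 in P291L, a call lost without shRPL3 replicate 2. Without shRPL3 replicate 3, the counts were 8 higher and 1 lower in P291L, 2 higher and 6 lower in D308N, 9 higher and none lower in D308V, and 9 higher and 1 lower in R343W. The rises of MT-ATP6 in D308V (0.17) and R343W (0.15) were the calls lost there, and each was also lost without any 1 of 3 (D308V) or 4 (R343W) other libraries. RPL3 was also higher than in shRPL3 in P291L (log2 0.33), D308N (0.38) and R343W (0.45), each with an adjusted p under 0.05 (limma). Its difference of 0.09 in D308V did not pass (adjusted p = 0.0598), and the part of RPL3 was not tested.

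The library kinds differed in every mRNA. All 13 were higher in the second kind within the model (background 14.5% higher and 43.3% lower), with a median log2 difference of 0.76, against -0.15 over all genes. The kinds were read from these same data, so the calls describe the division and do not test it. Median-ratio scaling gave 0.92 for the 13 and -0.019 for all genes. The difference could be seen within each of the 4 groups that hold both kinds, since every mRNA was higher in the second kind in each of them (plot of the difference between kinds). Its size was not the same in all groups, while the model holds 1 shift for all. R161W had the smallest difference in each of the 13 mRNAs, with 0.53 in MT-CYB, against 0.71 to 0.77 in the other groups. MT-ATP8 differed by 1.56 to 1.81 on the log2 scale over these groups, MT-ND1 by 0.90 to 1.15 and MT-ND2 by 0.98 to 1.11. MT-CO1 differed by 0.25 to 0.41 and MT-CO3 by 0.25 to 0.39. MT-ND5 differed by 0.89 to 1.03 and MT-ND4L by 0.80 to 0.92. MT-RNR1 differed by 0.07 in the model, a call lost without G27D replicate 3 (adjusted p = 0.145), and MT-RNR2 by 0.30.

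**Figure D5:**
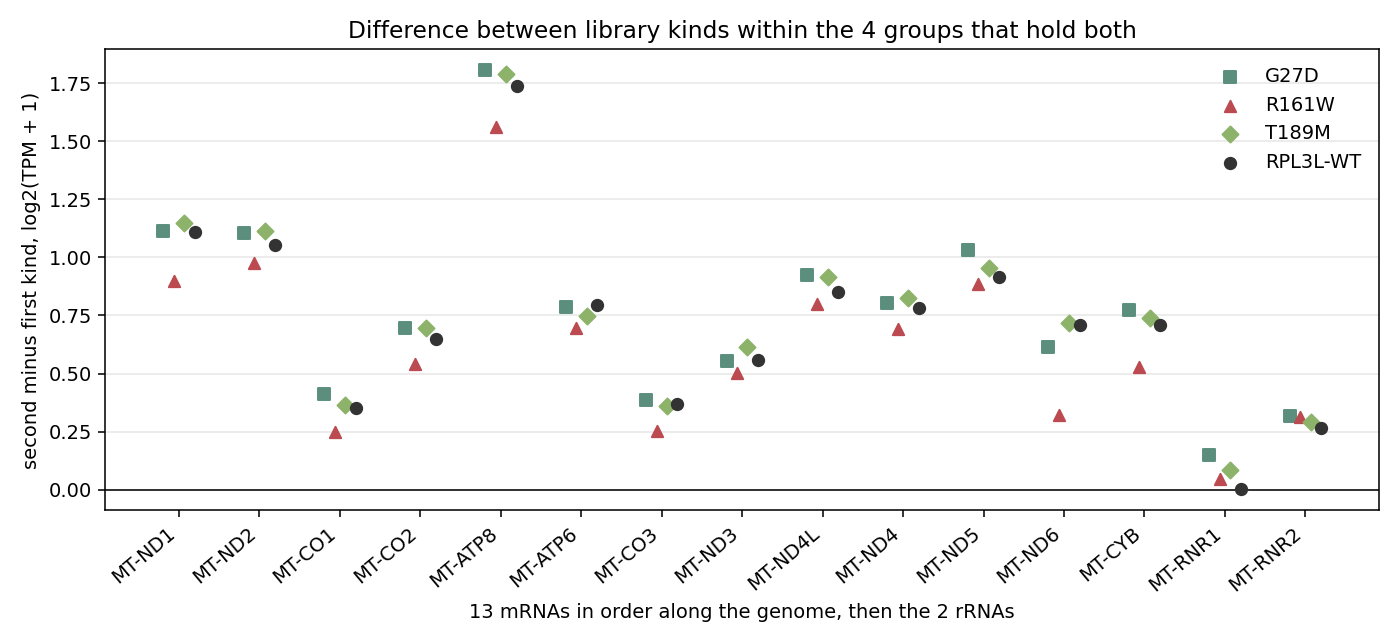
Second minus first library kind in log2(TPM + 1) (vertical axis) for the 13 mRNAs in order along the genome and the 2 rRNAs (horizontal axis), within G27D, R161W, T189M and RPL3L-WT (symbols; means where a kind has 2 libraries). MT-ATP8 differs most, by 1.56 to 1.81, and MT-RNR1 least, by at most 0.15.

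The split between the overlapping genes MT-ATP8 and MT-ATP6 also differed between kinds. The ratio of MT-ATP8 to MT-ATP6 was 2.45 to 2.81 in second-kind libraries, against 1.28 to 1.56 in first-kind libraries, although the reading frames lie on 1 mRNA. The ratio of MT-ND4L to MT-ND4 was 1.15 to 1.22 in second-kind libraries, against 0.992 to 1.18 in first-kind libraries, and these ranges overlapped. A near-identical nuclear copy was quantified beside MT-ATP6. MTATP6P1, a pseudogene on chromosome 1 (633696 to 634376, GRCh38), matched MT-ATP6 at 671 of 681 bases. Its level was 21.7 to 24.3% of that of MT-ATP6 in second-kind libraries, against 10.3 to 11.6% in first-kind libraries. It followed MT-ATP6 in shRPL3 against shScramble (log2 -0.93 against -0.87 for MT-ATP6), and reads of the pair cannot be told apart with certainty. Shares were smaller for MTND1P23, at most 1.88% of MT-ND1, and MTND2P28, at most 1.30% of MT-ND2. Of 402 nuclear pseudogene symbols of mitochondrial genes in the table, 4 had a mean of at least 1 TPM.

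The rRNAs were 0.44 to 0.96% of all TPM. The RNA was polyA-selected, so these values cover only the rRNA that the pull-down kept. They do not measure the amount of rRNA in the cells, and the changes below are changes in these values. MT-RNR1, the small-subunit rRNA, was 1105 to 1155 TPM in P291L, 1407 and 1409.6 TPM in R161W replicates 2 and 3, 709.6 to 751 TPM in D308N and 787 to 803 TPM in R343W, against 1130.1 TPM in RPL3L-WT replicate 3. Against RPL3L-WT it fell in D308N (log2 -0.58), R343W (-0.46), D308V (-0.29) and G27D (-0.20) and rose in R161W (0.36). In D308N against D308V it fell by 0.28. MT-RNR2 rose in R161W (0.49) and fell in P291L (-0.19), a call lost without RPL3L-WT replicate 3 (adjusted p = 0.0521), and in R343W (-0.18). The median of the 13 mRNAs against RPL3L-WT was 0.19 in R161W, -0.33 in D308N and -0.16 in G27D, each with the sign of MT-RNR1. It was 0.07 in R343W and 0.03 in D308V, near the medians of 0.04 and 0.02 over all genes. With median-ratio scaling these 13 had medians of 0.0175 in R343W and 0.0004 in D308V. No direction of the mRNAs is therefore given for R343W and D308V. In RPL3L-WT against shRPL3, MT-RNR1 rose by 0.50 (adjusted p = 3.87e-10), while the difference of 0.06 in MT-RNR2 did not pass. In shRPL3 against shScramble MT-RNR1 fell by 0.10, a call lost without shRPL3 replicate 2 (adjusted p = 0.0521).

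The tRNAs were low and sparse in these polyA-selected libraries, and 9 to 16 of the 22 were above 0 in a library. MT-TL1 (leucine), which lies between MT-RNR2 and MT-ND1, reached the highest level, 365 TPM in G27D replicate 3. It had 182 TPM in RPL3L-WT replicate 3, against 55 to 69 TPM in shRPL3 libraries, and 36 to 67 TPM in shScramble libraries. It rose in RPL3L-WT against shRPL3 (log2 1.45 ± 0.36 SE, adjusted p = 0.00584). In that comparison 3 of the 16 tested tRNAs were higher and 1 lower (background 6.27% higher and 20.1% lower). MT-TA (alanine) had 12.02, 10.4 and 7.63 TPM in RPL3L-WT libraries and was listed at 0 in shRPL3 libraries. MT-TM (methionine) had 34.2, 61.8 and 12.8 TPM in RPL3L-WT libraries, against 3.23, 0 and 0 TPM in shRPL3 libraries. The MT-TM values of 34.2 and 61.8 TPM are from second-kind libraries, while the shRPL3 libraries are of the first kind. Over all groups the median of MT-TM was 24.5 TPM in the second kind, against 4.86 TPM in the first. MT-TK (lysine) went the other way, listed at 0 in RPL3L-WT libraries, against 6.24, 4.98 and 2.16 TPM in shRPL3 libraries. MT-TP (proline, minus strand) had 25.9, 15.8 and 13.1 TPM in shRPL3 libraries, against 79.7, 76.6 and 125.9 TPM in shScramble libraries, and fell by 2.32 on the log2 scale (adjusted p = 0.00942). In shRPL3 against shScramble, 3 of the 16 tested tRNAs fell and none rose, a share of lower calls under the 24.5% of all genes.

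Of the nuclear genes that act on the mitochondrial genome and its RNA, those of RNA processing and of transcription had the largest shares of higher calls among the 6 lists tested in the knockdown. In shRPL3 against shScramble (background 24.4% higher and 24.5% lower), 19 of 29 genes of mitochondrial RNA processing and turnover rose and none fell, with a median log2 fold change of 0.30. Among them were HSD17B10, a subunit of mitochondrial RNase P, at 66.3 ± 5.7 TPM in shRPL3 libraries, against 32.6 ± 1.7 TPM in shScramble libraries (SD, n = 3 each), and SLIRP, at 538 ± 28 TPM in shRPL3 libraries, against 320.0 ± 7.5 TPM in shScramble libraries. TRMT61B (log2 0.77), a methyltransferase of mitochondrial RNA, and FASTKD3 (0.71) rose too. Of 10 genes of mitochondrial transcription, 7 rose and 1 fell: TFB2M, the initiation factor, rose by 0.74, TEFM, the elongation factor, by 0.71 and MTERF1, a terminator protein, by 0.87, while TFB1M, an rRNA methyltransferase, fell by 0.47. Of 18 genes of mitochondrial DNA replication and the nucleoid, 5 rose and 1 fell, among them the helicase TWNK (0.94) and SSBP1 (0.69), which binds single-stranded DNA, a share of higher calls near the 24.4% of all genes, with a list median of 0.03. Of 20 translation factors, 8 rose and 1, GFM2, fell, and of the 10 tested among 12 regulators of mitochondrial biogenesis, 5 rose, among them GABPB1 (0.76), and 1 fell, PPARA (-0.71).

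The nuclear-encoded partners of the same complexes moved less. Of 73 nuclear-encoded subunits of complexes I, III, IV and V, 25 rose and 8 fell in shRPL3 against shScramble, with a median of 0.04 (background 24.4% higher and 24.5% lower). When values were scaled to the genes outside the mitochondrial genome, 18 were higher and 14 lower. That scaling gave 3013 higher and 4176 lower over all 14426 genes. NDUFB9 and NDUFB10 of complex I rose by 0.47 and 0.44 and ATP5MC1 of the ATP synthase by 0.39. In RPL3L-WT against shRPL3 (background 6.27% higher and 20.1% lower), 13 of the 29 RNA processing genes were lower and none higher. The lower calls were 5 in the first-kind libraries alone and 2, with 1 higher, under median-ratio scaling. Transcription genes had 5 lower of 10, replication genes 4 lower of 18 and translation factors 6 lower of 20, with none higher in these lists. In the first-kind libraries alone the lower calls in these 3 lists were 4, 1 and 3, and with median-ratio scaling they were 2 each, beside 2 higher translation factors. Of the 73 subunits, 15 were lower and 1 higher, and 3 lower and 7 higher with median-ratio scaling, so no direction is given for them. Over all 14426 genes median-ratio scaling gave 1596 higher and 1231 lower in RPL3L-WT against shRPL3. In D308N against D308V, where 12 of the 13 mRNAs were lower, none of the 29 RNA processing genes and none of the 10 transcription genes passed in either direction. There 1 of the 18 replication genes, 2 of the 20 translation factors and 2 of the 73 subunits were higher and none lower, against 4.07% higher and 4.19% lower over all genes, so that lists of this size hold few calls at the share of all genes.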

How the data were processed

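Levels are TPM, which the authors deposited as 1 table of genes by library, each column summing to 1000000. Per the labels' protocols, mRNA was enriched by polyA pull-down, and libraries used Illumina TruSeq chemistry with KAPA HiFi in the final PCR. Bowtie, kallisto, bedtools and bcl2fastq 2.19 were used, per the submitters' processing notes, which give no roles. The quantification index is not stated in these sources. Columns were matched to samples by their names, 6 construct sequences were set aside, and 12 nuclear RNA libraries were not used. Genes with a mean of at least 1 TPM over the 30 libraries were tested with limma 3.58.1 (R 4.3.3, trended robust variances) on log2(TPM + 1), in 1 model of 10 groups with a term for the library kind, and p-values were adjusted by Benjamini-Hochberg over all 14426 genes within each comparison (threshold 0.05, two-sided). The pseudocount understates changes of low genes. The model was tested on simulated data. All members are accounted for; of the nuclear lists, up to 4 genes per list and comparison could be named: those with the largest changes among genes with an adjusted p under 0.05 whose higher group averaged 5 TPM or more. The members, lists and library kinds were chosen with earlier results of these data known. Alternatives were no kind term, first-kind libraries only, other scalings, a pseudocount of 0.1, no filter, a replicate block and leaving out each library. Sequences and positions are from GENCODE 29 (GRCh38).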

Additional observations from a re-analysis of the deposited data

How the results depend on the processing

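TPM hold no depth, so precision rests on 3 libraries a group. Without the term for the library kind, the difference between kinds counts as spread between replicates and also shifts the mean of each group that holds second-kind libraries. The median log2 fold change of the 13 mRNAs was then 0.84, against 0.31 with the term, in RPL3L-WT against shRPL3 (11 higher), 0.087 against -0.40 in RPL3L-WT against shScramble, -0.84 against -0.33 in D308N against RPL3L-WT (12 lower), -0.53 against 0.031 in D308V against RPL3L-WT (3 lower and none higher), and -0.51 against -0.020 in P291L against RPL3L-WT. Of the 13 mRNAs the number called was 7 in shRPL3 against shScramble, 3 in RPL3L-WT against shScramble, 1 in R343W against RPL3L-WT, 2 in D308N against shRPL3, and 0 in P291L, G27D, R161W and T189M against RPL3L-WT, in P291L, D308V and R343W against shRPL3, and in D308N against D308V. First-kind libraries alone gave 3 in G27D, 1 in D308V and 0 in P291L and T189M against RPL3L-WT. Median-ratio scaling and no filter on low values each gave 0 in P291L and in T189M against RPL3L-WT, and scaling to genes outside the mitochondrial genome gave 0 in P291L. Without the kind term 14 called differences changed sign, none then passing: in RPL3L-WT against shScramble, MT-ATP8 (0.42), MT-ND3 (0.21), MT-ND4L (0.087), MT-ND4 (0.051) and TFB2M (-0.022); in RPL3L-WT against shRPL3, PPRC1 (-0.036); for MT-ND1 against RPL3L-WT, G27D (-0.13), D308N (-0.33), D308V (-0.14) and R343W (-0.43); in R161W against RPL3L-WT, MT-ATP8 (-0.24), MT-ATP6 (-0.023) and MT-CYB (-0.067); and in R343W against RPL3L-WT, MT-CO1 (-0.10).

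Leaving out 1 library at a time, the number of the 13 called was 11 to 12 in shRPL3 against shScramble, 8 to 11 in RPL3L-WT against shRPL3 and 10 to 11 in RPL3L-WT against shScramble. Against RPL3L-WT it was 0 to 1 in P291L, 3 to 8 in G27D, 6 to 10 in R161W, 0 to 3 in T189M, 11 to 13 in D308N, 1 to 5 in D308V and 3 to 6 in R343W. Against shRPL3 it was 8 to 9 in P291L, 8 in D308N, 8 to 10 in D308V and 10 to 12 in R343W. It was 9 to 13 in D308N against D308V, and 13 between kinds. Of 1950 gene values so recomputed, 110 lost their call, 22 gained it and none changed sign.

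Median-ratio scaling moved the split of all genes called, to 1596 higher and 1231 lower from 905 and 2901 in RPL3L-WT against shRPL3, 3281 and 3015 from 2251 and 4191 in RPL3L-WT against shScramble, 2189 and 2034 from 1229 and 3942 in P291L, 2234 and 2347 from 1614 and 3199 in D308N, 2124 and 1923 from 1395 and 3232 in D308V and 2470 and 2427 from 1827 and 3290 in R343W, each against shRPL3. Against RPL3L-WT it gave 1589 and 2084 from 2326 and 1280 in R161W, 667 and 856 from 1084 and 444 in T189M, 2011 and 2302 from 2523 and 1844 in D308N, and 2168 and 2289 from 2713 and 1814 in R343W. It gave 495 and 827 from 587 and 604 in D308N against D308V, and 3540 and 3754 from 2094 and 6250 between kinds. The replicate numbers pair no samples: over 45 same-numbered pairs the correlation of deviations ran from -0.10 to 0.088, and 4 of 18 libraries correlated best with their own number. With the replicate block and the kind term, P291L against RPL3L-WT had 0 mRNAs called, and 306 of 310 gene values kept their direction and side of the threshold.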
